A study of Populus tremula x Populus alba with 3 samples.

Results

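The GASA family consists of small secreted plant peptides with a cysteine-rich C-terminal domain, named after the tomato gene GAST1 and its Arabidopsis homologues. Many GASA genes respond to gibberellin, a hormone that promotes shoot elongation and whose signalling releases growth from repression by DELLA proteins. In Populus, gibberellin is also known for its part in the release of buds from dormancy. The genes described here are Potri.005G239100 and Potri.015G071500 and any other gene of the authors' deposited table whose Arabidopsis description holds the words "gibberellin-regulated" or "GAST1". They numbered 4 of the 2151 genes in that table, of which 1805 carry a description, and the count table has 41335 genes. Since the authors listed genes that differed between the RNAi lines and wild type in these same libraries, the members were chosen on that difference. Their differences from wild type are therefore given as a description with no test. In the authors' deposited table the FDR of the member nearest the limit, Potri.014G020100, is 0.000362 and the largest FDR of any gene is 0.0499, and genes beyond that limit carry no description.

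RNA came from the apices of the hybrid poplar INRA clone 717-1B4, a Populus tremula x Populus alba genotype used for transformation. There was 1 library of wild type and 2 libraries of PtaDML10 RNAi plants, 1 from each of the lines KD2 and KD5, so that each line stands for itself and wild type has no replicate. PtaDML10 is named as a DEMETER-like DNA demethylase, and the sources used here do not name the promoter of the RNAi construct. Plants of all 3 genotypes went through 4 weeks of long days (16 h light, 21 °C), 12 weeks of short days (8 h, 19 °C) and 4 weeks at 4 °C in short days, and were then returned to long days. For every genotype 15 topmost buds from 15 plants were taken, still unopened, and whether these were pooled is not stated. Ages beyond these times are not given.

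The wild type library held 6829583 counts, the library labelled KD2 4509887 and the library labelled KD5 4692056. Potri.010G234400 is the identifier of PtaDML10 in the poplar literature, which nothing in the files checks. It had 59 counts in wild type (9.59 CPM, the count set against its TMM-scaled library size), 63 in the library labelled KD2 (13.2 CPM) and 83 in the library labelled KD5 (17.0 CPM). If that identifier is right, the knockdown labels were not matched by a lower level counted on the targeted gene. Whether these counts include reads from the RNAi construct was not tested, so they do not show whether the gene's own transcript was reduced. The counted level was nominally higher, which edgeR's quasi-likelihood test did not call (adjusted p = 0.151, log2 fold change 0.66, SE 0.31). Every direction below rests on these labels. The listed matches of the apex marker genes SHOOT MERISTEMLESS and CLAVATA1 were present in all 3 libraries, with summed levels of 288 CPM in wild type, 135 CPM in the library labelled KD2 and 181 CPM in the library labelled KD5.

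All 4 GASA genes stood lower in both libraries labelled as RNAi than in wild type. The GASA1 match and the 2 genes that match the Arabidopsis locus AT5G14920 stood at 39.0% to 50.1% of the wild type level. The gene matching AT5G59845, with few reads, stood at 21.7%. Over the 4 genes the median log2 fold change was -1.30. It was 0.02 over the 23089 genes tested, a distance that the choice of the members on this contrast goes far to set and that is no support for a change of the family.

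Potri.005G239100 is described as GAST1 protein homolog 1 and carries the symbol GASA1 through the locus AT1G75750. By poplar naming it lies on chromosome 5. It had 2241 counts in wild type, 795 in the library labelled KD2 and 686 in the library labelled KD5, which correspond to 364 CPM, 167 CPM and 141 CPM. The wild type library was the highest. The exact 95% Poisson intervals, which cover counting error only, were 349 to 380 CPM in wild type, 156 to 179 CPM in the library labelled KD2 and 130 to 152 CPM in that labelled KD5. The log2 fold change of RNAi against wild type was -1.24 (SE 0.16), the 425th lowest of all genes tested. Of the 4 genes it was the one whose 2 RNAi libraries differed by more than counting error, with a ratio of KD2 to KD5 of 1.19 (exact 95% interval 1.07 to 1.32). No test could be made between 2 single libraries, and the fit's coefficient of variation between libraries was 11.4%.

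Potri.015G071500, on chromosome 15, is described as a gibberellin-regulated family protein and matches AT5G14920, the locus known in Arabidopsis as GASA14. It had 3343 counts in wild type (544 CPM), 990 in the library labelled KD2 (208 CPM) and 1055 in the library labelled KD5 (216 CPM). The 2 RNAi libraries lay close together, with a ratio of KD2 to KD5 of 0.961 (interval 0.881 to 1.05), and both lay far below wild type. The log2 fold change was -1.36 (SE 0.16). In the authors' deposited table this gene had the smallest FDR of the 4, 5.76e-09, which placed it 43rd among the 1387 genes listed as lower. That FDR comes from the comparison on which the members were chosen, with 1 wild type library, and is no separate support.

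Potri.012G076700, on chromosome 12, matches the same locus, AT5G14920, with the same description. It had 1198 counts in wild type (195 CPM), 466 in the library labelled KD2 (97.8 CPM) and 475 in the library labelled KD5 (97.4 CPM). Its RNAi libraries had nearly equal levels, at a ratio of 1.00 (interval 0.883 to 1.14), and their mean stood at 50.1% of the wild type level. The log2 fold change was -0.997 (SE 0.17), the smallest difference from wild type of the 4 genes.

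The 2 matches of AT5G14920 could be set against each other within a library, where library scaling has no part. Potri.015G071500 had 2.79 times the counts of Potri.012G076700 in wild type (exact 95% interval 2.61 to 2.98), 2.12 times in the library labelled KD2 (1.90 to 2.38) and 2.22 times in the library labelled KD5 (1.99 to 2.48). The ratio was highest in wild type. These intervals leave out the variation between libraries, for which the fit's coefficient of variation over all genes was 11.4%. That value comes from the library labelled KD2 against that labelled KD5 and holds no measure of how wild type libraries vary. The fitted log2 fold changes of the pair, -1.36 and -0.997, have SEs of 0.16 and 0.17. Whether the pair differed in its change was not tested. Gene length enters each ratio but is the same in every library. How the authors' counting treated reads that fit both genes is not given in the sources used here, so the split between this pair is uncertain.

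Potri.014G020100, on chromosome 14, is a gibberellin-regulated family protein that matches AT5G59845, known in Arabidopsis as GASA10. It had 41 counts in wild type (6.67 CPM), 5 in the library labelled KD2 (1.05 CPM) and 9 in the library labelled KD5 (1.84 CPM). Wild type was the highest. The counting intervals were wide for these few reads, at 4.78 to 9.04 CPM in wild type and 0.341 to 2.45 CPM and 0.843 to 3.50 CPM in the libraries labelled KD2 and KD5. The log2 fold change was -2.18 (SE 0.64). The wild type level was 6.35 times that of the library labelled KD2 (interval 2.51 to 20.6) and 3.61 times that of the library labelled KD5 (1.73 to 8.46), so the size of the difference is known only loosely. No difference between the 2 RNAi libraries was detectable at this depth (ratio of KD2 to KD5 0.569, interval 0.150 to 1.89).

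**Figure D1:**
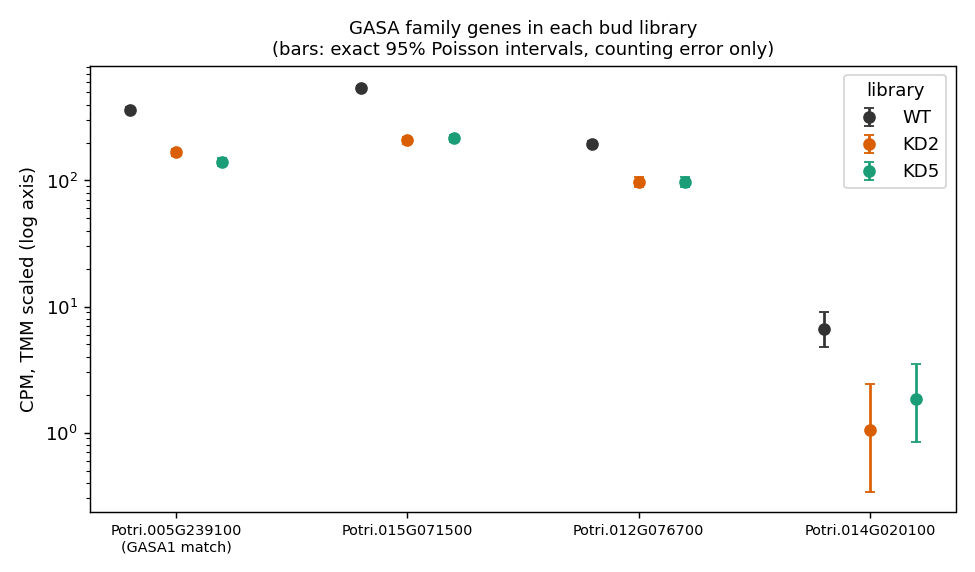
Level of each GASA family gene in CPM (log axis) in the wild type library and the libraries labelled KD2 and KD5, with exact 95% Poisson intervals that cover counting error only. For every gene the wild type point lies highest, and for Potri.014G020100 the intervals are wide, at 41, 5 and 9 counts.

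Relative to the wild type library alone, with a prior count of 2, the log2 ratio of the GASA1 match was -1.12 in the library labelled KD2 and -1.37 in that labelled KD5. For Potri.015G071500 the values were -1.39 and -1.33, for Potri.012G076700 -0.991 and -0.998, and for Potri.014G020100 -2.30 and -1.66. These ratios share their wild type library. Both RNAi libraries were below wild type in 4 of 4 GASA genes, which were chosen from a table listing 1387 of 2151 genes as lower. Both RNAi libraries were also below wild type in 38.4% of all genes tested. Among those that averaged 64 CPM or more, as 3 of the GASA genes did, the share was 63.2%.

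The levels of the 4 genes added up to 1109 CPM in wild type, 474 CPM in the library labelled KD2 and 456 CPM in the library labelled KD5. Of the counts of the 4 genes, Potri.015G071500 took 49.0% in wild type, 43.9% in the library labelled KD2 and 47.4% in that labelled KD5. The share of Potri.012G076700 was 17.6% in wild type and 20.7% and 21.3% in the libraries labelled KD2 and KD5. The GASA1 match took 32.8%, 35.2% and 30.8% in the same order. The summed level was therefore lower in both RNAi libraries, while its make-up moved by a few percentage points. In bulk samples, fewer cells of a type and less RNA per cell cannot be told apart.

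The fit across all genes called 13.1% of them at a Benjamini-Hochberg adjusted p below 0.05 (edgeR quasi-likelihood test), 8.05% as lower and 5.0% as higher in the RNAi libraries. All 4 GASA genes were called, which follows from the way they were chosen. The calls were all lower, and 1387 of the 2151 genes in the authors' deposited table are listed as lower. Neither is read further. Without a filter on low counts edgeR called 0 of the 4, although all 4 had an unadjusted p under 0.05, and DESeq2 called the 3 to which it gave an adjusted p. A 2-fold minimum left 3, without Potri.012G076700, and a minimum count of 30 left 3, without Potri.014G020100. Calls of lower level were more frequent among abundant genes, and 3 of the GASA genes are abundant. Of the 3520 genes that averaged 64 CPM or more, 29.2% were called, 25.9% as lower and 3.3% as higher, and their median log2 fold change was -0.19. The log2 fold changes of the 3 abundant GASA genes, from -1.36 to -0.997, lay below that median. Their choice on this contrast goes far to set that distance, which is no support for a change of the family.

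**Figure D2:**
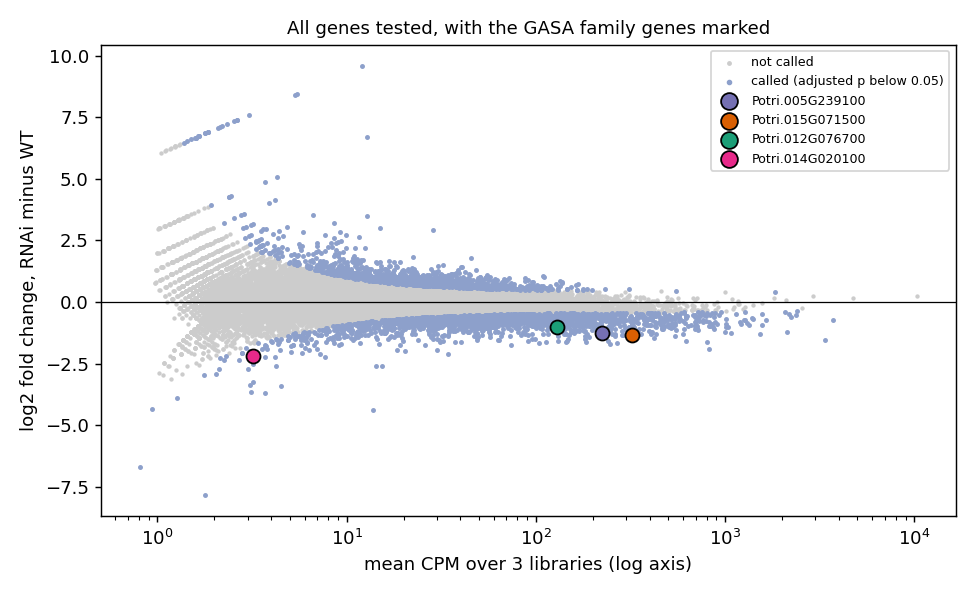
Log2 fold change of the RNAi libraries against wild type for all 23089 genes tested, against the mean CPM over the 3 libraries (log axis), with called genes in blue and the 4 GASA genes as large circles. The 3 abundant GASA genes lie between -1.36 and -0.997 in the range where most called genes are lower, and Potri.014G020100 lies at -2.18 among genes with few reads.

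Library scaling changed the size of these differences but not their direction. With libraries scaled by size only, 75.5% of called genes were higher, against 38.3% with TMM scaling, and the median of all genes moved from 0.02 to 0.24. The GASA1 match then stood at -1.02, Potri.015G071500 at -1.14, Potri.012G076700 at -0.78 and Potri.014G020100 at -1.97, and all 4 remained below 0. Loess normalization on abundance, which removes a trend with level, gave -0.93, -0.98, -0.78 and -2.34 for the same genes in the same order.

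**Figure D3:**
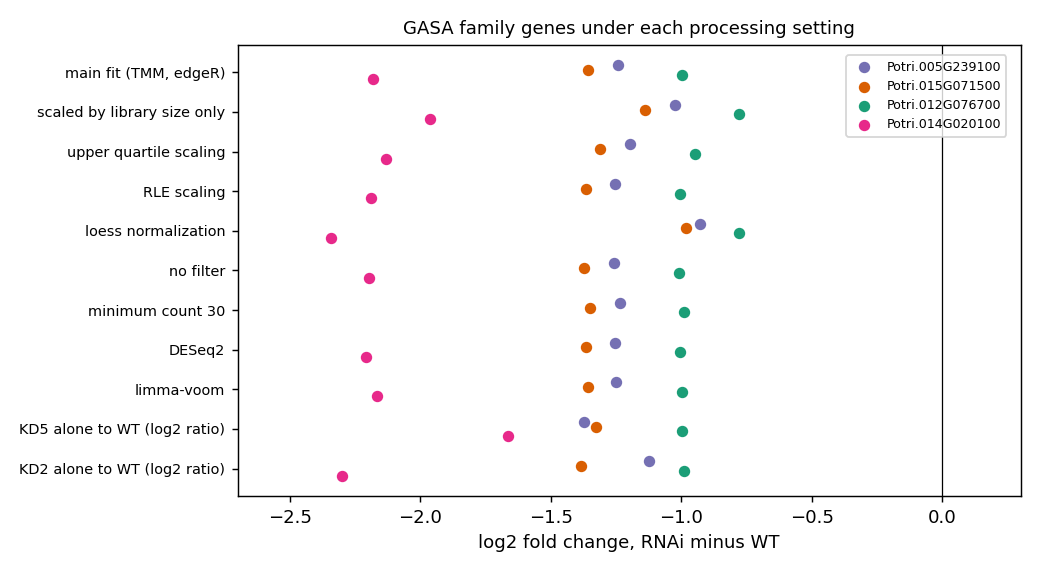
Log2 fold change of the 4 GASA genes under each processing setting, with the ratios of the library labelled KD5 alone and the library labelled KD2 alone to wild type at the bottom. All points lie below 0, and Potri.014G020100 has no point at a minimum count of 30, where it was filtered out.

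Listed genes that mark tissues of the bud were lower in the RNAi libraries, as were the GASA genes. These lists could be drawn only from the authors' deposited table, so their members were chosen on the same contrast. That choice largely sets whether they are called, and 1387 of the 2151 genes listed there are lower. Of all genes tested, 8.05% were called lower and 5.0% higher. Green leaf genes were taken by the words chlorophyll a/b binding or Rubisco small subunit in their description. Of these 7 listed genes, 7 were called lower. Their summed level was 4610 CPM in wild type, 1915 CPM in the library labelled KD2 and 1932 CPM in that labelled KD5. They include ELIP1 matches with few reads but not the listed Potri.005G239300 (LHCB1.4), which is described in other words. Of 6 epidermis genes (PDF1, LTP1 and FIDDLEHEAD matches), 6 were called lower, with sums of 2828, 1629 and 1396 CPM in the same order. The 3 meristem genes and the 2 secondary xylem genes were also called lower, the latter with sums of 54.0, 26.0 and 31.6 CPM. Most of the xylem sums came from the match of LAC6, taken by the word laccase, at 38.9, 20.8 and 24.6 CPM. The CESA7 match stood at 15.1, 5.25 and 6.97 CPM. No listed gene matched the phloem markers. Of 31 listed genes matching organelle genome loci, which served as a sign of RNA quality, 20 were called higher and 1 lower. Their sums were 233 CPM in wild type, 505 CPM in the library labelled KD2 and 329 CPM in that labelled KD5. The 1 called lower, Potri.011G074200 (ribosomal protein S19), held 144 CPM of the wild type sum. It stood at 103 CPM and 82.2 CPM in the libraries labelled KD2 and KD5, so these sums understate the rise of the others. KNAT1, KNAT2, WUSCHEL, PDF2, ATML1, CESA4 and CESA8 also had no match among the listed genes. Every listed meristem, epidermis, green leaf and xylem gene had counts in all 3 libraries, and the part of the markers and organelle matches in the GASA differences was not tested.

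Neighbouring genes were compared next, taking the nearest 2 identifiers on each side of every GASA gene. Of these 16 neighbours 9 had enough counts to be tested, 3 were called lower and 0 higher by edgeR. Of all genes tested 8.05% were called lower, and 25.9% of those that averaged 64 CPM or more, as the 3 called neighbours did. With 9 genes, no departure from these shares is claimed. The GASA1 match is followed by Potri.005G239200, the match of the chlorophyll a/b binding protein CAB1, and Potri.005G239300, the match of LHCB1.4, both light-harvesting proteins of the chloroplast. CAB1 stood at 730 CPM in wild type, 260 CPM in the library labelled KD2 and 274 CPM in the library labelled KD5 (log2 fold change -1.45, SE 0.15). LHCB1.4 stood at 449, 153 and 188 CPM in the same order (log2 fold change -1.40, SE 0.16). These 3 genes with successive identifiers were thus all lower in both RNAi libraries, and both light-harvesting genes are also in the authors' deposited table.

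No tested neighbour of the AT5G14920 matches was called. Next to Potri.015G071500, Potri.015G071400 had a log2 fold change of -0.21 (SE 0.25) and Potri.015G071700 of -0.10 (SE 0.19). Next to Potri.012G076700, the abundant Potri.012G076800 stood at 124 CPM in wild type, 143 CPM in the library labelled KD2 and 134 CPM in that labelled KD5 (log2 fold change 0.17, SE 0.17), and Potri.012G076600 at a log2 fold change of -0.29 (SE 0.30). Near Potri.014G020100, Potri.014G019900 was called lower at -0.62 (SE 0.18), while Potri.014G020200 stood at 0.58 (SE 0.25) and was not called. None of these genes is described in the authors' deposited table, so they carry no name here.

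**Figure D4:**
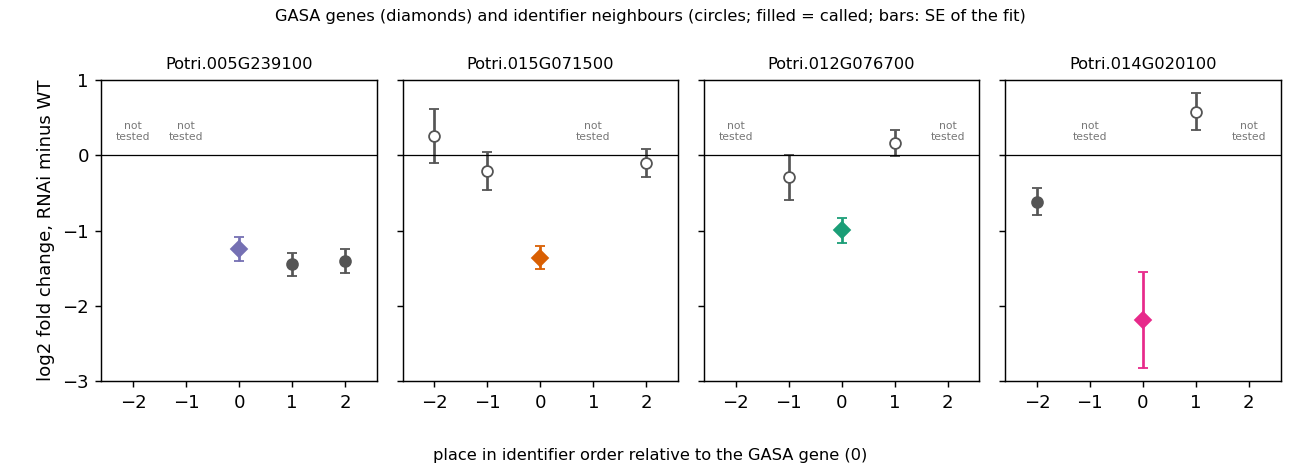
Log2 fold change of the RNAi libraries against wild type for each GASA gene (diamond at 0) and its nearest 2 identifiers on each side (circles, filled where called), with bars for the SE of the fit. Both neighbours after the GASA1 match lie at -1.45 and -1.40, and the neighbours of the AT5G14920 matches lie between -0.29 and 0.26.

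Genes with a like pattern were sought among 1565 described genes of the authors' deposited table that averaged 5 CPM or more, by the Euclidean distance between centred log2 CPM values over 3 libraries. With so few libraries many genes come close, and the distances describe these libraries alone. Nearest to the GASA1 match were Potri.015G027800 (UGT88A1, a UDP-glucosyl transferase) at a distance of 0.017, Potri.004G162400 (FBA2, a fructose-bisphosphate aldolase) at 0.034 and Potri.008G044700 (an RNA-binding protein) at 0.039. FBA2 stood at 191 CPM in wild type, 84.6 CPM in the library labelled KD2 and 71.9 CPM in that labelled KD5, with the library labelled KD5 lowest as for GASA1. Nearest to Potri.015G071500 were Potri.007G013100 (ribosomal protein L2 family) at 0.011, Potri.019G112400 (IQD13, an IQ-domain protein) at 0.027 and Potri.010G029100 (glutamine synthetase 2) at 0.032. Potri.007G013100 stood at 111, 42.4 and 43.7 CPM in wild type and the libraries labelled KD2 and KD5.

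The other GASA genes were not among the nearest 3 for either gene. All 1565 candidates were, like the members, listed on this same contrast. The distance between the GASA1 match and Potri.015G071500 was 0.232, and 77 of the 1565 described genes lay closer to GASA1 than that. Potri.012G076700 lay 0.268 from GASA1, with 117 of them closer. The pair that shares the locus AT5G14920 lay 0.299 apart, with 191 of the 1565 described genes closer to Potri.015G071500. Potri.014G020100, with few reads, lay farther off. Its distance was 0.866 from GASA1 (1028 genes closer) and 0.655 from Potri.015G071500 (1011 genes closer).

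For the rest of the gibberellin pathway, fixed phrases were sought for synthesis enzymes, the inactivating 2-oxidases, the receptor GID1, DELLA repressors and the F-box proteins of the receptor complex. Examples are "DELLA protein" and "gibberellin receptor GID1". These phrases matched 0 genes of the authors' deposited table by description or symbol. A pathway gene described there in other words would have been missed, so the 0 does not show that none is listed. The remaining GASA family members and the pathway genes outside that table carry no names in the files used and were not analysed here.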

How the data were processed

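The count table holds raw whole-number counts per gene in 1 column per library, as the authors deposited it. The library kit was directional, per the labels' protocols. FastQC, TopHat and edgeR are listed in the submitters' processing notes. For their versions, the counting program, the annotation and the build: not given in the sources used here. A second deposited table, the authors' own comparison, gives, per the file headers, a log2 fold change, an average log2 CPM, p-values and FDR for 2151 genes, with a largest FDR of 0.0499, and Arabidopsis loci, symbols and descriptions.

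Counts were tested with edgeR 4.0.16 in R 4.3.3: filterByExpr with a minimum count of 10 (23089 genes kept), TMM scaling, and the two-sided quasi-likelihood F-test of both RNAi libraries against wild type with Benjamini-Hochberg adjustment over all genes tested. Adjusted p below 0.05 is a call. The SE is the fold change divided by the root of F. The design leaves 1 residual degree of freedom, wild type is assumed to vary like the RNAi libraries, and p-values measure only the spread between these libraries. TMM factors ran from 0.904 to 1.06. Log2 ratios of single libraries used a prior count of 2. The fit was tried on counts simulated with its own dispersion for every library, wild type included. Such counts cannot test the assumption on how wild type varies.

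Members, lists and the rules for named genes were chosen with earlier results of these data known. Named were every member, their nearest 2 identifiers on each side, the 3 described genes with the most similar pattern for each of 2 members, and called pathway genes. No sequence or coordinate was used here. Alternatives covered scaling, filter, test (DESeq2 1.42.0, limma 3.58.1), fold threshold and leaving out 1 RNAi library.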

Additional observations from a re-analysis of the deposited data

How the results depend on the processing

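The single wild type library could not be left out. A fit without 1 RNAi library would have no residual degrees of freedom and was not made. The log2 ratio of the remaining RNAi library to wild type was used instead, as a value with no test. Of 23089 genes, 3014 were called. Loess normalization called 1175, DESeq2 532, and a 2-fold minimum 924. Without a filter on low counts edgeR called 0, with 5051 at an unadjusted p under 0.05. In that fit 0 of the 4 GASA genes were called, with all 4 at an unadjusted p under 0.05, and their log2 fold changes were -1.26 (Potri.005G239100), -1.37 (Potri.015G071500), -1.01 (Potri.012G076700) and -2.20 (Potri.014G020100). DESeq2 called the 3 GASA genes to which it gave an adjusted p. The median of the 4 moved from -1.30 to -1.08 under scaling by library size alone and to -0.96 with loess normalization. With 1 RNAi library left out the median ran from -1.35 to -1.25, Potri.012G076700 from -0.998 to -0.991 and Potri.014G020100 from -2.30 to -1.66. No alternative gave a log2 fold change above 0 for any of the 4 genes. The ratio of KD2 to KD5 stayed within its counting interval for each gene under 2 other prior counts and 2 other scalings. The cause of the moved values was not tested. With no other annotation the GASA family equals the 4 members, and no alternative could be run for the pathway list, whose phrases matched 0 genes. No paired analysis was possible because the labels give no replicate numbers shared by the groups and wild type has 1 library. Depth limits Potri.014G020100, at 41, 5 and 9 counts.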
